A study of Mus musculus with 18 samples.

Results

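Threonine and proline tRNAs were followed in hippocampal RNA as every nuclear tRNA entry named tRNA-Thr or tRNA-Pro in the table that the read counter tRAX wrote for this series. They made up 50 of the 548 nuclear tRNA entries, namely 20 of 213 mature tRNAs and 30 of 335 pre-tRNA loci. Threonine held 14 mature isodecoders (tRNAs with the same anticodon and different bodies) and 16 loci, spread over the anticodons AGT, CGT and TGT. Proline held 6 mature isodecoders and 14 loci, spread over AGG, CGG and TGG. Antisense entries were left out.

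The 18 libraries came from 18 male mice, 1 each, and covered wild type mice of B6SJL background (WT) and 5xFAD mice, a model of Alzheimer's disease. The 5xFAD line carries mutated human transgenes, among them APP with the Swedish, London and Florida mutations, driven by the mouse Thy-1 promoter and so mainly expressed in neurons. At 6 months of age all mice received adeno-associated virus on both sides, in CA1 and the dentate gyrus, and were killed 4 weeks later. The virus rAAV2/8-H1-shControl-RSV-GFP gave the control groups, WT shCT (n = 5: mice 3, 5, 6, 11 and 15) and 5xFAD shCT (n = 3: mice 1, 16 and 18). The virus rAAV2/8-H1-shRTP801-RSV-GFP, which expresses an shRNA against the stress protein RTP801, gave WT shRTP801 (n = 4: mice 4, 10, 17 and 21) and 5xFAD shRTP801 (n = 6: mice 2, 7, 8, 12, 14 and 19). Every mouse thus carried virus, H1-driven shRNA and GFP. Whole hippocampi were sequenced, so cells that the virus did not reach and cells other than neurons are in every library, and fewer cells of a type cannot be told apart from less RNA per cell. The question was whether genotype or RTP801 silencing shifted the pool of these tRNAs.

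A tRNA gene is transcribed by RNA polymerase III as a precursor, whose 5′ leader and 3′ trailer are cut off before CCA is added to the 3′ end. Threonyl-tRNA synthetase and prolyl-tRNA synthetase then load the mature tRNA with its amino acid. In AGT and AGG tRNAs the first anticodon base is changed from adenosine to inosine, which lets them read codons ending in U, C or A, whereas CGT and CGG tRNAs serve the codons that end in G. TGT and TGG tRNAs have a uridine in that place and read codons ending in A and often G. The families known for introns in mammals are Arg-TCT, Ile-TAT, Leu-CAA and Tyr-GTA, so the threonine and proline precursors need no tRNA splicing. In Hydro-tRNA-seq the tRNA is broken by alkaline hydrolysis before sequencing, so most reads cover only part of a molecule. Many bodies differ at few positions, and a read can then be counted on several entries.

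The deposited table named no coordinates for the loci and the files used here held no tRNA sequences, so entries are given by name only. In RefSeq's mouse annotation (assembly GRCm38.p6, used for names and neighbours only) 33 genes carried threonine or proline anticodons of these kinds. Of them 26 had another tRNA gene next to them, and for 14 that neighbour was itself a threonine or proline tRNA gene. The threonine genes were 72 to 74 bases long and the proline genes 72 bases.

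The libraries held 9850676 to 20292469 reads on mature nuclear tRNAs and 47875 to 318628 on pre-tRNA loci. Mature threonine tRNAs took 100316 to 322336 reads per mouse and mature proline tRNAs 25694 to 103597, against 222 to 3849 and 71 to 1078 precursor reads. Mice 4, 5 and 7 stood apart: mitochondrial tRNA amounted to 0.444, 0.00319 and 0.0326 reads per 100 mature reads there, and to at least 10.2 in the other 15 mice. They also had the most precursor reads per 100 mature reads, at 1.01, 1.17 and 1.72 against at most 0.762 in the others, which bears on each precursor comparison and whose part in those results was not tested. Mice 4, 5 and 7 belong to WT shRTP801, WT shCT and 5xFAD shRTP801, in that order. Some results are also given without them, but not each one that moved. The brain tRNA Arg-TCT-4 was present in every library (61 to 6619 reads, median 378), while the brain snoRNA Snord116 was at 0 in the lowest library (median 764 reads). The brain miRNA gene Mir9-1 had 0 to 12 reads (median 0) and the endothelial miRNA gene Mir126a 0 to 13. The other marker genes searched for had no line of that name, among them Snord115 and the Mir124 genes of brain and those of blood, immune cells, liver and muscle, so the tissue check rests on few markers.

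Among mature tRNAs, threonine reads lay mostly on AGT and CGT. TGG was the largest proline anticodon as listed, at 38.9% to 46.6% of proline reads. The anticodon family tRNA-Thr-AGT held 0.588% ± 0.177 (SD, n = 18) of all mature tRNA reads, tRNA-Thr-CGT 0.486% ± 0.189 and tRNA-Thr-TGT 0.189% ± 0.0649. Among proline tRNAs tRNA-Pro-TGG held 0.206% ± 0.0752, tRNA-Pro-CGG 0.130% ± 0.0450 and tRNA-Pro-AGG 0.123% ± 0.0424. Neighbours in these orders were compared within mice with a 2-sided permutation test that flips signs of the log2 ratio (100000 draws), with Benjamini-Hochberg adjustment over 12 comparisons. Thr-CGT exceeded Thr-TGT in 18 of 18 mice (adjusted p = 4e-05), and Pro-TGG exceeded Pro-CGG in 18 of 18 (adjusted p = 4e-05), both from 1e-05, the smallest p these draws can give. Pro-CGG exceeded Pro-AGG in 15 of 18 (adjusted p = 0.00108). Pro-TGG sums 4 mature isodecoders, whereas Pro-CGG and Pro-AGG have 1 each, so the size of its lead depends on that sum. Taken alone, Pro-TGG-2 lay below Pro-CGG-1 in mice 4 (0.0814% against 0.0897%), 5 (0.111% against 0.130%) and 7 (0.125% against 0.144%). In every other mouse it lay above, often by little, as in mouse 17 (0.117% against 0.116%). Near-identical entries were counted once within an anticodon only, which leaves the proline order as listed. The first place among threonine tRNAs depended on how near-identical isodecoders were counted. As listed, Thr-AGT exceeded Thr-CGT in 13 of 18 mice (adjusted p = 0.00383), but with near-identical isodecoders counted once, Thr-CGT (0.486%) exceeded Thr-AGT (0.353%) in 14 of 18 (adjusted p = 0.00108).

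That turn rested on entries with nearly equal counts. Thr-AGT-1 and Thr-AGT-3 each held 0.235% of mature reads, and their reads reaching the 3′ end differed by 0.00616%. Thr-TGT-2 and Thr-TGT-3 had identical 3′ counts in 18 of 18 libraries. Across anticodons, the 3′ reads of Pro-AGG-1 and Pro-CGG-1 differed by 4.03%, those of Pro-CGG-1 and Pro-TGG-2 by 4.06%, and those of Thr-CGT-4 and Thr-TGT-1 by 3.38%. Pro-TGG-1 stood apart from these, with 174987 3′ reads against 276202 for Pro-TGG-2. Whether near-equal counts are the same reads counted on several entries was not tested, so the 3 proline anticodons are not taken as independent of each other. By isodecoder, Pro-TGG-2 made up 64.7% ± 3.65 (SD, n = 18) of Pro-TGG reads and Pro-TGG-1 made up 35.2% ± 3.64, while Pro-TGG-3 and Pro-TGG-4 had 116 and 115 reads in all mice together. Thr-CGT-2 made up 50.8% ± 3.98 of Thr-CGT reads and Thr-CGT-1 made up 41.0% ± 3.12.

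Precursors kept another order. Thr-CGT held 0.530% ± 0.330 (SD, n = 18) of all pre-tRNA reads, Thr-TGT 0.224% ± 0.148 and Thr-AGT 0.128% ± 0.0550, so the anticodon with the most mature reads as listed had the fewest precursor reads of its amino acid. Thr-CGT lay above Thr-TGT in 18 of 18 mice (permutation test, adjusted p = 4.8e-05), and Thr-TGT above Thr-AGT in 15 of 18 (adjusted p = 0.00018). Pro-CGG, Pro-AGG and Pro-TGG precursors held 0.125% ± 0.0506, 0.111% ± 0.0480 and 0.0977% ± 0.0307. Neither step in the proline order passed the permutation test (adjusted p = 0.0943 and 0.0684). Precursor reads are few. For Thr-CGT in mouse 5 (2356 reads) the Wilson 95% interval reached 4.02% of the value to either side, whereas for Pro-CGG in mouse 14 (23 reads, 0.0369%) it ran from 0.0246% to 0.0553%. Such intervals cover counting error only.

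The loci of an anticodon gave unequal parts of its precursor reads. Thr-CGT-1-1 gave 45.7% ± 8.58 (SD, n = 18) of Thr-CGT precursor reads, followed by Thr-CGT-4-1 with 21.4% ± 8.78. Thr-CGT-4 thereby differed between the classes, as it gave 5.66% ± 1.54 of mature Thr-CGT reads. Thr-TGT-3-2 gave 52.9% ± 14.4 and Thr-TGT-2-1 gave 30.5% ± 16.7 of Thr-TGT precursor reads. Thr-AGT was more even, with 31.1% ± 7.72 on Thr-AGT-1-1 and 21.7% ± 12.7 on Thr-AGT-4-1. Among the 3 Pro-CGG loci, Pro-CGG-1-2 led with 58.4% ± 17.5 and Pro-CGG-1-1 followed with 21.9% ± 10.8. Reads of the 6 Pro-AGG loci were spread, with 31.3% ± 9.23 on Pro-AGG-1-1 and 22.1% ± 11 on Pro-AGG-1-4. The 5 Pro-TGG loci ranged from 10.6% on Pro-TGG-2-4 to 24.1% on Pro-TGG-1-1, with 22.4% ± 10.9 on Pro-TGG-2-2.

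**Figure D1:**
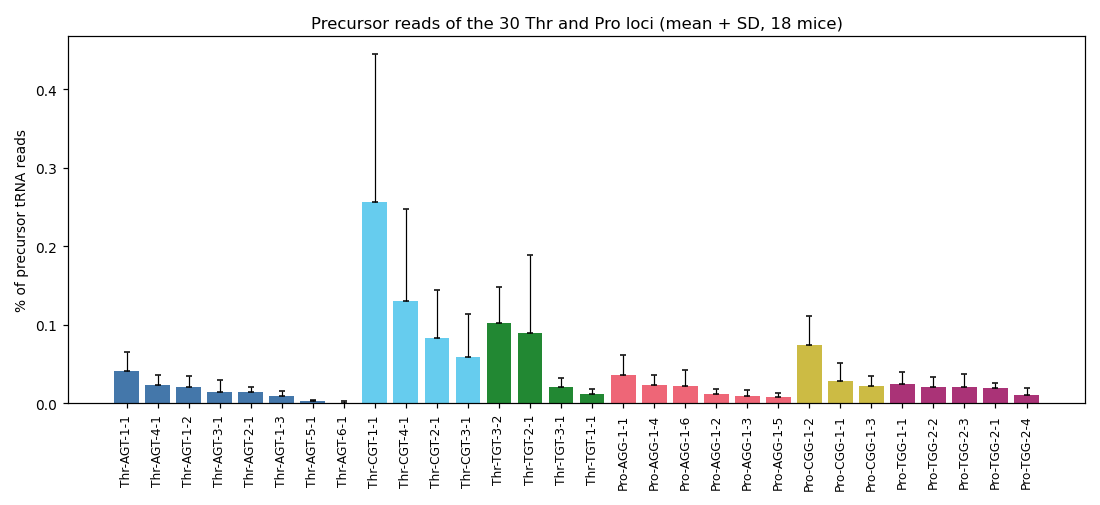
Share of each of the 30 threonine and proline loci in all pre-tRNA reads (percent), ordered within each anticodon. Bars are means over 18 mice, whiskers reach 1 SD above, and colours mark anticodons. Thr-CGT-1-1 has the tallest bar, and Pro-CGG-1-2 stands above the other proline loci.

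No mature threonine or proline anticodon differed between groups beyond the spread of the mice. In 5xFAD shCT mice (1, 18 and 16) mature Thr-CGT stood at 0.517%, 0.830% and 0.373% of mature reads. In WT shCT mice (3, 5, 6, 11 and 15) it stood at 0.720%, 0.251%, 0.325%, 0.668% and 0.545%. In WT shRTP801 mice (10, 4, 17 and 21) the values were 0.311%, 0.362%, 0.633% and 0.623%, and in the 6 5xFAD shRTP801 mice they ran from 0.297% to 0.829% with a median of 0.365%. All 4 groups overlapped, and the same held for the other 5 anticodons in each pairwise comparison. limma, fitted to log2 shares of all 49 mature anticodons in 1 model of the 4 groups, called 0 of the 6 in each of 5 comparisons (background 0.0% of anticodons called, lowest adjusted p = 0.495 among the 6). At an unadjusted p under 0.05 it also gave 0 of the 6. Over all 49 anticodons that level was met by 4.08% for genotype, 12.2% for RTP801 silencing in WT mice, 2.04% for silencing in 5xFAD mice, 0.0% in 5xFAD shRTP801 against WT shRTP801 and 8.16% in the interaction, which is the silencing effect in 5xFAD minus that in WT mice. edgeR and DESeq2, run on the reads recovered from the table, called 0 of the 6 as well. Exact permutation tests (2-sided) of genotype under control shRNA gave adjusted p of 0.693 or more, where the smallest p that 3 against 5 mice allow is 0.0179.

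**Figure D2:**
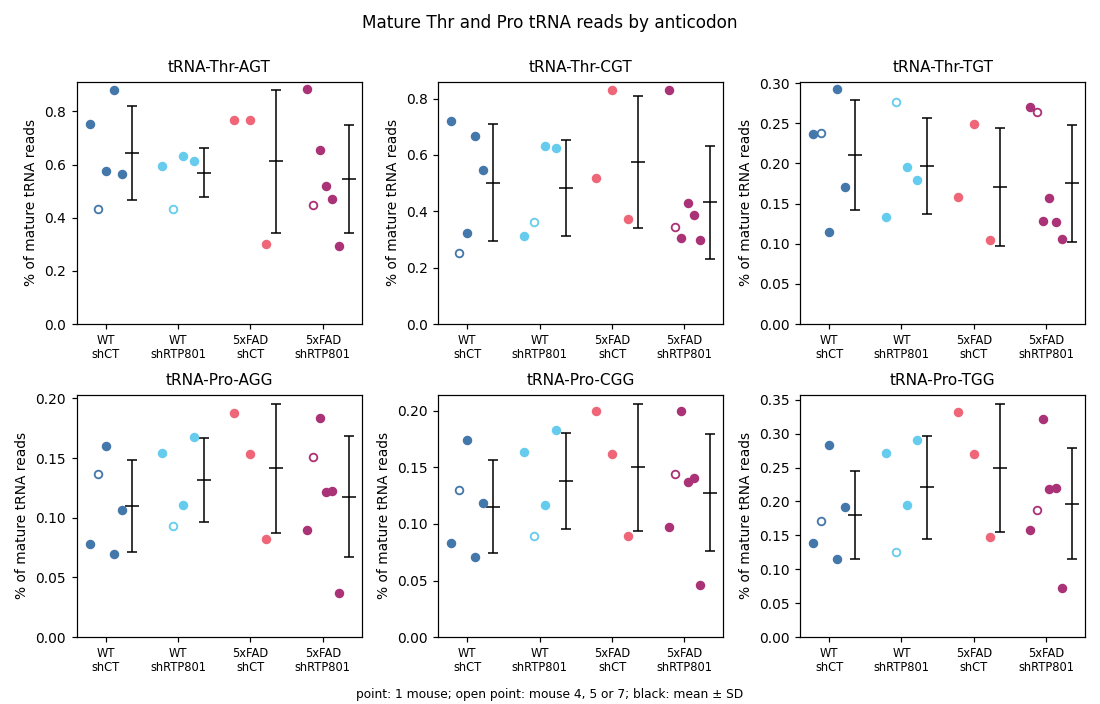
Share of each mature anticodon in all mature tRNA reads (percent), by group. Points are mice, open points are mice 4, 5 and 7, and black marks are means ± SD. The 4 groups overlap in every panel, as in Thr-CGT, where 5xFAD shRTP801 mice span 0.297% to 0.829%.

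The isodecoders behaved alike. Of the 20 threonine and proline isodecoders 17 passed the filter on low shares, and of these limma called 0 in each comparison (background 0.0% of 186). At an unadjusted p under 0.05 it gave 0 of the 17 too, where the background was 5.38% for genotype, 10.8% and 1.08% for silencing in WT and 5xFAD mice, 0.538% in 5xFAD shRTP801 against WT shRTP801 and 9.68% in the interaction. Mature Pro-TGG-1 had the smallest p of these in 5xFAD shCT against WT shCT, with a log2 difference of 0.57 (SE 0.46, limma adjusted p = 0.623). Its log2 difference between 5xFAD shRTP801 and 5xFAD shCT was -0.69 (SE 0.45, limma adjusted p = 0.955). For Thr-CGT-4 the genotype difference was -0.37 (SE 0.39), and for Thr-CGT-1 the silencing difference in 5xFAD mice was -0.47 (SE 0.40). Thr-AGT-2 and Thr-AGT-5 had log2 differences of -0.27 (SE 0.33) and -0.21 (SE 0.26) between WT shRTP801 and WT shCT. All of these were smaller than 2 standard errors. The share of each anticodon within the reads of its own amino acid was also tested, and limma called 0 of the 6 (background 0.0% of 39 anticodons). None of the 6 had an unadjusted p under 0.05 either, as against 2.56% of all for both genotype comparisons, 5.13% for silencing in WT mice, 5.13% in 5xFAD mice and 12.8% in the interaction.

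Proline precursors had higher mean shares in 5xFAD shCT than in WT shCT mice and lower ones in 5xFAD shRTP801 mice, but no difference passed the adjusted threshold. Precursor Pro-CGG stood at 0.129%, 0.20% and 0.173% of precursor reads in 5xFAD shCT mice (1, 18 and 16). In 5xFAD shRTP801 mice it ran from 0.0369% to 0.117% with a median of 0.101%. Every 5xFAD shRTP801 mouse thus lay below every 5xFAD shCT mouse. Of the 48 precursor anticodons, 8.33% had no overlap between these groups in either direction. The means were 0.0932% ± 0.0290 (SD, n = 6) and 0.167% ± 0.0362 (SD, n = 3), with an exact permutation p of 0.0119, the smallest that 6 against 3 mice allow, and an adjusted p of 0.190. In WT shCT mice (3, 5, 6, 11 and 15) the same precursor stood at 0.0836%, 0.0937%, 0.166%, 0.0758% and 0.130%, and in WT shRTP801 mice (10, 4, 17 and 21) at 0.120%, 0.0957%, 0.239% and 0.192%. The WT groups overlapped each other and the 5xFAD shCT mice.

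Precursor Pro-AGG stood at 0.134%, 0.112% and 0.144% in 5xFAD shCT mice, against 0.0385% to 0.127% (median 0.0819%) in 5xFAD shRTP801 mice. In WT shRTP801 mice (10, 4, 17 and 21) it stood at 0.116%, 0.111%, 0.256% and 0.117%, so mouse 17 lay above every other mouse of the study. In WT shCT mice (3, 5, 6, 11 and 15) the values were 0.0478%, 0.145%, 0.111%, 0.0735% and 0.115%. All 4 groups overlapped when every mouse was kept. Without mice 4, 5 and 7 the WT shRTP801 mice (0.116% or more) lay just above the WT shCT mice (0.115% or less). Pro-TGG separated these groups too, at 0.106% or more against 0.0967% or less. They were 2 of the 6 without overlap. The share over all precursor anticodons is not given here, so the separation is not read further. The lowest adjusted exact permutation p of the 6 precursor anticodons in that comparison was then 0.343. Precursor Pro-TGG stood close together in 5xFAD shCT mice (1, 18 and 16), at 0.102%, 0.110% and 0.106%. It ranged from 0.0385% to 0.117% in 5xFAD shRTP801 mice (median 0.0812%), from 0.0642% to 0.111% in WT shCT mice and from 0.106% to 0.184% in WT shRTP801 mice.

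In the limma fit over 48 precursor anticodons, 0 of the 6 were called in any of the 5 comparisons (background 0.0%). At an unadjusted p under 0.05, all 3 proline precursors were among the 3 anticodons of 48 (6.25%) in 5xFAD shRTP801 against WT shRTP801. Their log2 differences were -0.81 for Pro-AGG (SE 0.38), -0.78 for Pro-CGG (SE 0.36) and -0.69 for Pro-TGG (SE 0.30), with an adjusted p of 0.658 each by limma. In the interaction the log2 values were -1.29 (SE 0.58), -1.43 (SE 0.54) and -1.04 (SE 0.45), with an adjusted p of 0.227 each by limma. There 20.8% of all anticodons had an unadjusted p under 0.05. Pro-CGG was the 1 of the 6 at that level for silencing in 5xFAD mice (4.17% of all), and none was for genotype (12.5%) or for silencing in WT mice (4.17%). Without mice 4, 5 and 7 the interaction values were -1.70, -1.63 and -1.34 (limma adjusted p = 0.0919 each). edgeR and DESeq2 called 0 of the 6. At an unadjusted p under 0.05 each gave 1 of the 6 in the interaction, which is not read further because the share over all anticodons is not given here. These comparisons share the WT shRTP801 mice, and mouse 17 is 1 of them.

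**Figure D3:**
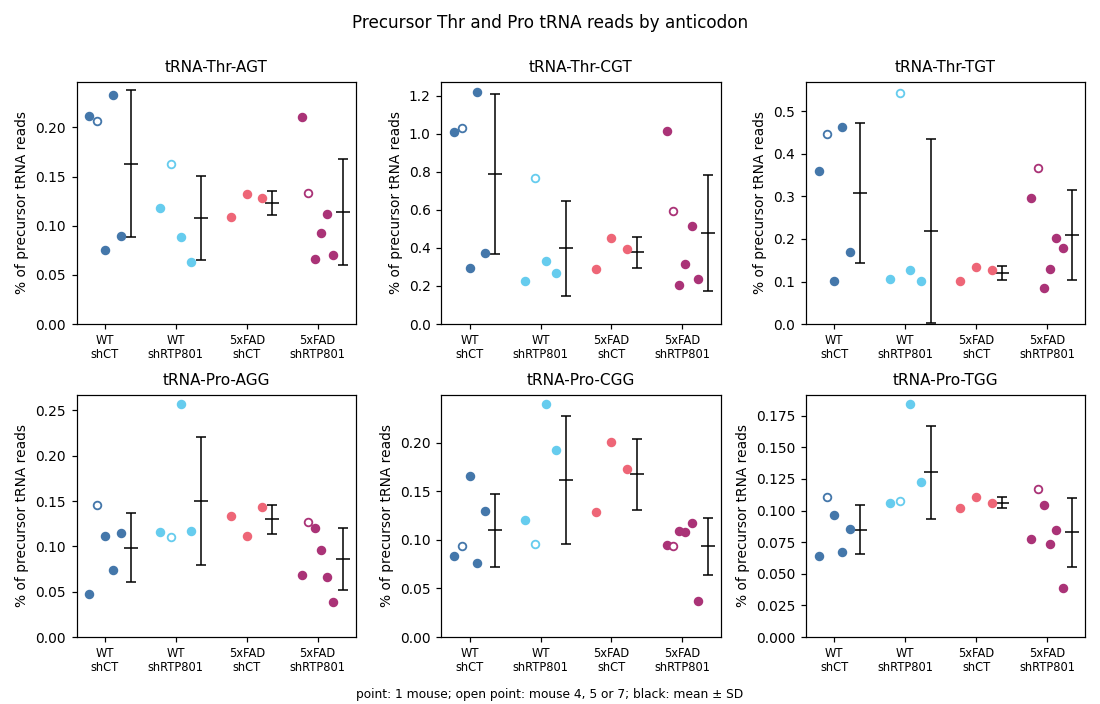
Share of each precursor anticodon in all pre-tRNA reads (percent), by group. Points are mice, open points are mice 4, 5 and 7, and black marks are means ± SD. For Pro-CGG the 5xFAD shRTP801 mice (0.0369% to 0.117%) lie below the 5xFAD shCT mice (0.129% to 0.20%), and mouse 17 stands alone in Pro-AGG at 0.256%.

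The threonine precursors had wider spreads. Thr-CGT stood at 0.289%, 0.450% and 0.396% in 5xFAD shCT mice (1, 18 and 16) and at 1.01%, 1.03%, 0.295%, 1.22% and 0.376% in WT shCT mice (3, 5, 6, 11 and 15). WT shCT mice 3, 5 and 11 lay far above mice 6 and 15 of the same group, and the latter overlapped the 5xFAD shCT mice. WT shRTP801 mice (10, 4, 17 and 21) had 0.224%, 0.766%, 0.331% and 0.267%, and 5xFAD shRTP801 mice ranged from 0.205% to 1.01% with a median of 0.415%. The log2 difference between 5xFAD shCT and WT shCT was -0.86 (SE 0.58, limma adjusted p = 0.359). Thr-TGT followed the same mice, with 0.360%, 0.447%, 0.102%, 0.462% and 0.169% in WT shCT and 0.101%, 0.134% and 0.126% in 5xFAD shCT mice, a log2 difference of -1.14 (SE 0.61, limma adjusted p = 0.328). In WT shRTP801 mice (10, 4, 17 and 21) Thr-TGT stood at 0.106%, 0.543%, 0.126% and 0.102%, so mouse 4, which is among the libraries nearly free of mitochondrial tRNA, held the highest value of all. Mouse 5, also of that kind, was high for both anticodons in WT shCT. Precursor Thr-AGT differed by -0.26 (SE 0.45) on the log2 scale between 5xFAD shCT and WT shCT mice.

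**Figure D4:**
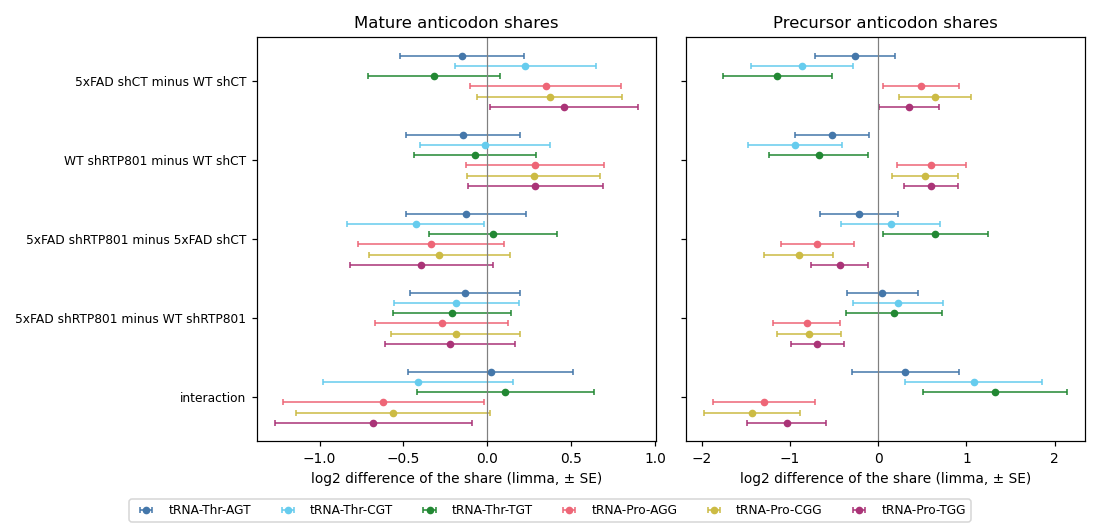
Fitted log2 differences (limma, ± SE) of mature shares on the left and precursor shares on the right, for 5 comparisons and 6 anticodons. In the precursor panel proline lies above 0 and threonine below 0 in 5xFAD shCT minus WT shCT and in WT shRTP801 minus WT shCT. No value passed the adjusted threshold, and comparisons that share a group are not independent.

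By locus, the signs of the proline precursors ran together. All 14 proline loci had lower fitted shares in 5xFAD shRTP801 than in WT shRTP801 mice (median log2 difference -0.77, against -0.03 over 333 loci, of which 158 were higher). All 14 were also higher in WT shRTP801 than in WT shCT mice (median 0.63, against -0.06 over all, with 45.05% of all loci higher). Both counts rest on the same WT shRTP801 mice. Of these, mouse 17 had 0.680% of its precursor reads on proline loci, against 0.314% to 0.431% in the others. Loci of the same mice are not independent of each other, so such counts are not replicates. Fitted shares of 10 of 14 were higher in 5xFAD shCT than in WT shCT mice (median 0.59, against 0.03 over all, with 50.75% of all loci higher). Those of 11 of 14 were lower in 5xFAD shRTP801 than in 5xFAD shCT mice (median -0.56, against -0.13 over all, with 45.95% of all loci higher). Of the 16 threonine loci, 12 were lower in 5xFAD shCT than in WT shCT mice (median -0.54) and 13 were lower in WT shRTP801 than in WT shCT mice (median -0.67). limma called 0 of the 30 loci in every comparison (background 0.0% of 333). At an unadjusted p under 0.05 it gave 5 of the 30 in the genotype comparison, where 15.6% of all loci were at that level, and 6 of the 30 in the interaction, where 15.3% were. For silencing in 5xFAD mice it gave 4 of the 30 (7.51% of all loci), for silencing in WT mice 2 of the 30 (10.2%) and in 5xFAD shRTP801 against WT shRTP801 1 of the 30 (2.1%). In the genotype comparison the count is near the background.

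The locus Thr-CGT-4-1 had the smallest p of the 30 loci in the genotype comparison (limma, unadjusted p = 0.00789). It held 0.0181%, 0.0900% and 0.0177% of precursor reads in 5xFAD shCT mice (1, 18 and 16) and 0.233%, 0.351%, 0.0584%, 0.367% and 0.0898% in WT shCT mice (3, 5, 6, 11 and 15). Mouse 18 reached into the WT shCT range, so the groups overlapped. The log2 difference was -2.45 (SE 0.82, limma adjusted p = 0.313). In WT shRTP801 mice (10, 4, 17 and 21) the locus held 0.0236%, 0.193%, 0.0309% and 0.0538%, and in 5xFAD shRTP801 mice 0.0384% to 0.328% (median 0.116%). The interaction came to 3.47 (SE 1.10, limma adjusted p = 0.241), and without mouse 4 to 4.08 (adjusted p = 0.0454). Under the other settings tried its adjusted p lay between 0.0819 (DESeq2) and 0.743, and without mice 4, 5 and 7 at 0.0998. Thr-TGT-3-2, the leading Thr-TGT locus, did not overlap between 5xFAD shCT and WT shCT mice, with means of 0.0579% ± 0.00560 (SD, n = 3) and 0.136% ± 0.050 (SD, n = 5), as for 9.91% of all loci (exact permutation p = 0.0536, adjusted 0.415).

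Pro-TGG-1-1 was the other locus of 30 without overlap in that comparison. It held 0.0330%, 0.0305% and 0.0413% in 5xFAD shCT mice (1, 18 and 16) and 0.0209%, 0.0101%, 0.0219%, 0.0138% and 0.0167% in WT shCT mice (3, 5, 6, 11 and 15). Each 5xFAD shCT mouse was above each WT shCT mouse (exact permutation p = 0.0179, adjusted 0.396). In WT shRTP801 mice (10, 4, 17 and 21) the values were 0.0295%, 0.0134%, 0.0710% and 0.0336%, and 5xFAD shRTP801 mice had 0.00961% to 0.0336% (median 0.0129%). These shares rest on 6 to 62 reads per mouse. The interaction was -2.07 (SE 0.67, limma adjusted p = 0.241) over all mice and -2.46 (adjusted p = 0.0454) without mouse 4. Under the other settings tried it ran from -2.36 (DESeq2, adjusted p = 0.0819) to -1.11 (limma on the deposited normalized values, adjusted p = 0.743), and without mice 4, 5 and 7 it was -2.21 (adjusted p = 0.0789). For silencing in 5xFAD mice, Pro-AGG-1-6 (0.0122% against 0.0335%) and Pro-CGG-1-2 (0.0569% against 0.111%) were the loci without overlap, where 5.71% of all loci had none. Their adjusted exact permutation p were 0.330 and 0.384.

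Of the remaining named loci, Thr-CGT-3-1 held 0.127%, 0.0522% and 0.220% in 5xFAD shCT mice and had means of 0.133% there and 0.0369% in 5xFAD shRTP801 mice (exact permutation p = 0.0238, adjusted 0.384). Pro-CGG-1-1 had means of 0.0166% ± 0.00704 (SD, n = 6) in 5xFAD shRTP801 and 0.0472% ± 0.0395 (SD, n = 4) in WT shRTP801 mice (exact permutation p = 0.0333, adjusted 1). The WT shRTP801 mean rested on mouse 17 (0.104%), and without it was 0.0282% ± 0.0132 (SD, n = 3). Thr-AGT-6-1 had 21 reads in all mice together, too few for a comparison. The balance of precursor to mature reads of an anticodon, centred on the median anticodon of each library, was tested as well. limma called 0 of the 6 (background 0.0% of 48). At an unadjusted p under 0.05 it gave 0 of the 6 for genotype (12.5% of all), 1 for silencing in WT mice (2.08%), 1 for silencing in 5xFAD mice (12.5%), 2 in 5xFAD shRTP801 against WT shRTP801 (4.17%) and 3 in the interaction (16.7%), all of them proline. The Pro-CGG ratio had log2 differences of -0.80 (SE 0.31, adjusted p = 0.310) between 5xFAD shRTP801 and 5xFAD shCT and -1.30 (SE 0.43, adjusted p = 0.295) in the interaction, by limma.

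On average, most reads of these tRNAs were of the 3′ type. Reads that tRAX assigned to the 3′ end made up 97.7% to 99.5% of mature Thr-AGT and Thr-CGT reads and 84.5% to 96.7% of Thr-TGT reads. For proline they ranged from 37.0% to 98.7%, which overlaps both threonine ranges, and the amino acids were not tested against each other. Internal reads, which reach neither end, were the next largest type of proline reads on average, with means of 13.8% ± 14.2 (SD, n = 18) for Pro-AGG, 16.6% ± 15.4 for Pro-CGG and 15.5% ± 15.1 for Pro-TGG. Internal reads were 0.926% ± 0.400 of Thr-AGT, 1.28% ± 0.560 of Thr-CGT and 6.58% ± 3.54 of Thr-TGT reads. In mouse 5 the order was another, with internal reads at 0.409% of Pro-CGG and reads from the 5′ end at 0.990%, beside 15.4% internal reads in Thr-TGT. Whole proline tRNAs, read from end to end, accounted for 0.0791% to 0.521% of the reads of an anticodon, and Thr-CGT had 4 such reads in all mice together. Among precursors, trailers came to 0 to 14 reads and whole precursors to 0 to 7 reads per anticodon over all mice, so neither type was compared.

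The internal share of proline reads varied widely between mice. For Pro-AGG it was 5.12%, 3.28% and 7.17% in 5xFAD shCT mice (1, 18 and 16). It was 13.9%, 0.448%, 15.9%, 14% and 14.3% in WT shCT mice (3, 5, 6, 11 and 15) and 6.20%, 2.97%, 5.95% and 10.5% in WT shRTP801 mice (10, 4, 17 and 21). The 6 5xFAD shRTP801 mice spread from 0.426% in mouse 7 to 58.4% in mouse 14, with a median of 19.9%. Mice 7, 5 and 4 had the 3 lowest values of all 18 mice. Pro-CGG and Pro-TGG gave 62.2% and 60.4% in mouse 14 and 0.409% and 0.340% in mouse 5. Over all 18 mice limma called none of the 19 threonine and proline read types (background 0.0% of 153). For internal reads of Pro-AGG the log2 difference between 5xFAD shRTP801 and 5xFAD shCT was 1.43 (SE 1.30, adjusted p = 0.993), with 1 of the 19 and 2.61% of all read types at an unadjusted p under 0.05. For genotype 0 of the 19 were at that level (3.92% of all), for silencing in WT mice 1 (2.61%), in 5xFAD shRTP801 against WT shRTP801 3 (5.23%) and in the interaction 6 (12.4%). The last 6 were the reads from the 5′ end and the whole reads of the 3 proline anticodons, with log2 values from -1.18 (SE 0.39) for 5′ reads of Pro-AGG to -0.68 (SE 0.30) for its whole reads and a limma adjusted p of 0.358 to 0.384.

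Without mice 4, 5 and 7, a choice made after seeing the data, the internal share of proline reads was higher in 5xFAD shRTP801 than in 5xFAD shCT mice. The log2 differences were 2.37 for Pro-AGG, 2.17 for Pro-CGG and 2.29 for Pro-TGG (limma adjusted p = 0.0074 each), and these were the 3 read types called of 153 (1.96%). The means for Pro-AGG were then 29.8% ± 18.2 (SD, n = 5) and 5.19% ± 1.95 (SD, n = 3), for which an exact permutation test of the means gave p = 0.0714 (adjusted 0.390). The interaction came to 3.35, 3.03 and 3.23 (limma adjusted p = 0.00954 each), and Pro-AGG reads that start at the 5′ end had an interaction of -1.49 (limma adjusted p = 0.0376). In that comparison 8 of 153 read types (5.23%) were called. With only mouse 7 left out, the Pro-AGG difference was 2.37 with a limma adjusted p of 0.405, and with only mouse 4 or only mouse 5 left out it was 1.43 (limma adjusted p = 0.956 and 0.835). In the 15 mice, the mean internal share stood highest in 5xFAD shRTP801 mice (29.8% in Pro-AGG), followed by WT shCT (14.5% ± 0.926), WT shRTP801 (7.53% ± 2.53) and 5xFAD shCT mice (5.19%). Of the 19 read types, 8 or 9 had groups without overlap in each pairwise comparison, where 11.1% to 14.4% of all 153 had none, and the lowest adjusted exact permutation p was 0.243. The mice left out had the lowest internal shares of Pro-AGG. Read types of an anticodon are parts of 1 total, and the proline anticodons may share reads. The 8 or 9 are therefore not independent, and their number is not read as an excess. Mitochondrial tRNA reads per 100 mature reads were 10.2 to 53.2 in 5xFAD shRTP801, 15.8 to 106 in WT shCT, 74.0 to 99.6 in WT shRTP801 and 50.8 to 93.4 in 5xFAD shCT mice. Only 5xFAD shRTP801 and WT shRTP801 mice did not overlap, and these reads were not tested between groups. The part of mitochondrial reads in the result was not tested.

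**Figure D5:**
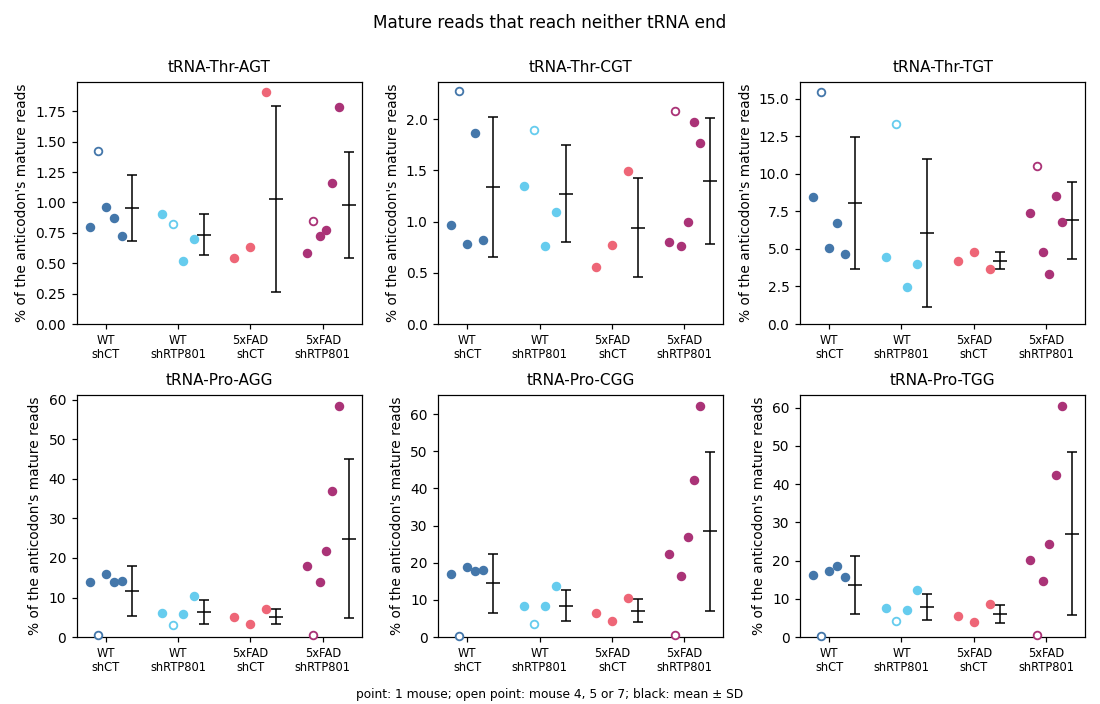
Internal reads (reaching neither end) as a percentage of the mature reads of each threonine and proline anticodon, by group. Points are mice, open points are mice 4, 5 and 7, and black marks are means ± SD. The 5xFAD shRTP801 mice span 0.426% to 58.4% in Pro-AGG, and the open points lie at the bottom of their groups for proline but at the top for Thr-TGT.

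Whole proline reads had separate ranges in the 2 control groups, though no test passed the threshold. Pro-CGG whole reads made up 0.408%, 0.443% and 0.434% of Pro-CGG reads in 5xFAD shCT mice (1, 18 and 16) and 0.211%, 0.244%, 0.287%, 0.311% and 0.260% in WT shCT mice (3, 5, 6, 11 and 15). The groups did not overlap for any of the 3 proline anticodons (exact permutation p = 0.0179, adjusted 0.546 each), as for 5.23% of all read types. The means were 0.330% against 0.228% for Pro-AGG and 0.300% against 0.208% for Pro-TGG. In WT shRTP801 mice the Pro-CGG share ran from 0.173% to 0.521% (mean 0.356% ± 0.143, SD, n = 4) and overlapped both control groups. In 5xFAD shRTP801 mice, Pro-CGG whole reads averaged 0.253% ± 0.0949 (SD, n = 6) and did not overlap the 5xFAD shCT mice (exact permutation p = 0.0119, adjusted 0.607, with 2.61% of read types without overlap). With RTP801 silenced the 5xFAD mean was thus below the WT mean, the opposite of the order in control mice. Those 2 silenced groups overlapped (0.0791% to 0.368% in 5xFAD mice), and the interaction did not pass the adjusted threshold in limma. Whole reads are 6 to 150 per mouse and anticodon.

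Threonine and proline anticodons were set beside related families. Of the 8 families whose genes have A as the first anticodon base, AGT and AGG among them, limma called 0 in both classes and every comparison. Their median log2 difference between 5xFAD shCT and WT shCT was 0.25 for mature reads, against 0.23 over all 49 anticodons, and -0.05 for precursors, against -0.02 over all 48. Of the 4 families whose codons end in CG, CGT and CGG among them, 0 were called either, with medians of 0.30 and -0.11 in the same comparison. The mitochondrial counterparts, which are transcribed from mitochondrial DNA, were also listed. mt-Tt held 2.33% to 10.6% of mitochondrial tRNA reads and mt-Tp 0.166% to 2.56%, and no exact permutation test between groups gave an adjusted p under 0.629. Both highest values came from mouse 5, which had 66 and 16 such reads among 624. Without mice 4, 5 and 7 the ranges were 2.33% to 10.1% and 0.166% to 0.493%, the WT shCT mean of mt-Tp went from 0.736% to 0.279%, and the lowest adjusted exact permutation p was 0.471.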

How the data were processed

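Per the labels, the authors sequenced hydrolysed tRNA fractions of hippocampal RNA, and counted reads with tRAX (version not given in the sources used here) on build mm39. The deposited values are a normalized signal, read counts divided by a factor per library. Every value was a whole multiple of a step per library (100% of values, relative tolerance 1e-06), and reads were recovered by division. Shares were computed as the percentage of a class (mature or precursor), and the log2 of these deposited signal shares, plus 0.001%, was tested with limma 3.58.1 (R 4.3.3) over features with a mean of at least 0.001%. For read types the pseudocount and filter were 0.1% of the anticodon, and for shares within an amino acid 0.01%. Exact permutation tests, 2-sided, used Python 3.11.15 and numpy 2.4.6. Recovered reads were also fitted with DESeq2 1.42.0 and with edgeR 4.0.16 as alternatives, beside other pseudocounts, filters and scalings and each mouse left out in turn. p-values carry Benjamini-Hochberg adjustment over all features (threshold 0.05). The limma step was tested on simulated data with planted changes. The spread there was set beforehand and not taken from these mice, so it does not show which changes could be found here. Named isodecoders and loci were the 2 with the highest mean share per anticodon and the 2 with the smallest limma p per pairwise comparison. Members, lists and rules were chosen with earlier results of these data known. Each library is 1 mouse.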

Additional observations from a re-analysis of the deposited data

Results flagged for a closer look

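Single mice that lay far from the rest of their group were searched for in 54 groups of 4 to 6 values with Dixon's criterion, which chance meets in about 1 of 20 groups. In mature reads, Thr-CGT in mouse 2 (5xFAD shRTP801) stood at 0.829%, with the next mouse at 0.430%. In precursor reads, Pro-AGG in mouse 17 (WT shRTP801) stood at 0.256% (next 0.117%), Pro-CGG in mouse 14 (5xFAD shRTP801) at 0.0369% (next 0.0938%) and Thr-TGT in mouse 4 (WT shRTP801) at 0.543% (next 0.126%). Internal reads of Pro-AGG, Pro-CGG and Pro-TGG in mouse 5 (WT shCT) stood at 0.448%, 0.409% and 0.340%, with the next mice at 13.9%, 17.0% and 15.7%. Whether the last 3 values rest on shared reads was not tested.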

How the results depend on the processing

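No paired analysis was possible because no replicate number in the labels occurs in more than 1 group. Over all alternatives, no call on mature or precursor anticodon shares, mature isodecoder shares, shares within an amino acid or precursor to mature ratios changed. Signs changed in 61 of 834 recomputed values for mature anticodons and 162 of 3870 for loci, and in none where the unadjusted p was under 0.05. The number of threonine and proline loci called in the interaction ran from 0 to 2 when each mouse was left out in turn, and the 2 came without WT shRTP801 mouse 4. The number of threonine and proline read types called rose from 0 to 3 (5xFAD shRTP801 minus 5xFAD shCT) and to 4 (interaction) without mice 4, 5 and 7. Leaving out these 3 mice and counting near-identical isodecoders once were chosen after seeing the data. The causes were not tested. Depth limits the precursors, at 71 to 1078 proline reads per mouse, and the whole proline reads, at 6 to 150 per mouse and anticodon.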

Other observations

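The makeup of the mature pool in mice 4, 5 and 7 lay outside the range of the other 15 mice for several threonine and proline tRNAs, a comparison made after these libraries were seen to hold almost no mitochondrial tRNA. Thr-TGT was 25.1% to 25.9% of mature threonine reads there and 11% to 15.9% in the others. Pro-AGG was 30.2% to 31.3% of mature proline reads against 23.8% to 27.1%, and Pro-TGG 38.9% to 40.7% against 45.0% to 46.6%. In precursors, Pro-CGG was 26.8% to 30.5% of proline reads in the 3 mice and 32.4% to 47.4% in the others. The mature shares of Thr-AGT, Thr-CGT and Pro-CGG overlapped between the 3 mice and the others, as did the precursor shares of every other threonine and proline anticodon. Anticodons of other amino acids were not compared in this way, so whether threonine and proline stood out was not tested. The 3 mice come from 3 groups.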
